A study of Mus musculus with 96 samples.

Results

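Levels of 10 transcription factor genes of pluripotency and the early embryo were read in single-cell RNA-seq libraries of mouse oocytes and 2-cell blastomeres. The 10 genes were Pou5f1, Nanog, Sox2, Klf4, Klf5, Klf17, Esrrb, Nr5a2, Tfap2c and Sall4, taken as a list from the 36935 gene symbols of the count table. The cells came from a mouse line with the P620A variant of Padi6, a component of the cytoplasmic lattices of the oocyte. By label, mutant oocytes were Padi6P620A/P620A and mutant 2-cell blastomeres were Padi6MatP620A/+, with the variant from the mother; wild-type oocytes and wild-type 2-cell blastomeres were both Padi6+/+. There were 22 libraries under each of these labels and 8 labelled negative control. Females were 4 to 8 weeks old and males 8 to 12 weeks, and all females received PMSG and, about 52 h later, hCG. Oocytes were collected in metaphase II about 13 h after hCG and freed of cumulus cells, and embryos came from in vitro fertilisation. Blastomeres were separated and polar bodies discarded. The labels name no animal or embryo, so cells of the same animal cannot be recognised.

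A library had to hold 100000 counts and 4000 detected genes, and 79 of 96 did. They were sorted by 2 genes and not by their stage labels, because the labels and the stage genes disagreed. Mos, the kinase that holds the egg in metaphase II, at 100 CPM (counts scaled to a library total of 1000000) or more made a library oocyte-like. Mos below 100 CPM with at least 1 count of Zfp352, a zinc finger gene transcribed at the 2-cell stage, made it 2-cell-like. This gave 39 2-cell-like and 39 oocyte-like libraries, and 1 library, number 86, in neither class. The 2-cell-like libraries carried the label mutant oocyte 19 times, mutant 2-cell 11 times, wild-type oocyte 7 times, wild-type 2-cell 0 times and negative control 2 times. The oocyte-like libraries carried the same labels 0, 9, 12, 14 and 4 times. Mos spanned 0 to 63.3 CPM in the 2-cell-like libraries and 201 to 6139 CPM in the oocyte-like ones, and Zfp352 spanned 0.566 to 815 CPM against 0 counts in all 39 oocyte-like libraries.

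The names hold only as far as these markers. Of the oocyte markers, 7 of 11 compared were at least 2-fold lower in the 2-cell-like libraries and 4 were within 2-fold, and 11 of 11 markers of the 2-cell stage were higher. Mos is among the 7 and Zfp352 among the 11, and both were used by the rule. The level of 10 CPM needed for a comparison was met by all 11 through the 2-cell-like class alone, so none of them could have been called lower. The 2-cell-like libraries were shallower, with 503644 to 3185910 counts, against 162539 to 5762563 in the oocyte-like ones, and held a median of 10370 against 13671 genes with a count. Markers of cumulus and granulosa cells, which surround the oocyte, took a median of 0.00263% (0 to 0.0162%) of counts in 2-cell-like libraries and 0.0409% (0.00148 to 1.07%) in oocyte-like ones. All 11 such markers that could be compared were lower in the 2-cell-like libraries. All but Cyp19a1 were under 10 CPM there, the level for a comparison, which fixed their direction. Of those not compared, Amh (2.65 against 0.0268 CPM) and Has2 (2.39 against 0.456 CPM) were higher in the 2-cell-like pool, and Foxl2, Fshr, Lhcgr and Ptx3 were lower. The part of this marker RNA in the results was not tested. Each class is a set of single cells defined from the data and counts as 1 sample, so no test was run and every ratio below is a description.

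In mouse, Pou5f1 (Oct4), Sox2 and Nanog form the core of the network that keeps pluripotent cells undifferentiated, with Klf4, Klf5, Esrrb and Sall4 as partners. The zinc finger protein Klf17 is an abundant maternal transcript, and the nuclear receptor Nr5a2 and the AP-2 factor Tfap2c act in the early cleavage embryo. After fertilisation the maternal mRNAs are cleared while the embryo's genome starts transcription, with the large wave in the mouse at the 2-cell stage. An mRNA level at that time is therefore what is left of the maternal store plus what is newly made, and these counts do not separate the 2.

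The promoters of Pou5f1, Klf17 and Esrrb are shown because these genes stand for the patterns in the data: higher in the 2-cell-like libraries, abundant in both classes, and lower in the 2-cell-like libraries. Each is the 250 bases before the start site in RefSeq's GRCm38.p6 table, the one farthest upstream where there are more. Pou5f1 and Esrrb have 2 start sites there and Klf17 has 1. The stretches lie at chr17:35505782-35506031 on the plus strand for Pou5f1, chr4:117765667-117765916 on the minus strand for Klf17 and chr12:86360867-86361116 on the plus strand for Esrrb. The reads were aligned to GRCm39. Capitals mark matches on either strand to a motif searched.
Pou5f1: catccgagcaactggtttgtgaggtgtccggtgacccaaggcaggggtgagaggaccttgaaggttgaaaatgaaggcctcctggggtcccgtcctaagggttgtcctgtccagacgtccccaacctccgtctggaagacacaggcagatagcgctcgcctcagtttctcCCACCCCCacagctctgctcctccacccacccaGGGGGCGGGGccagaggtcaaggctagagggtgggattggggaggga
Klf17: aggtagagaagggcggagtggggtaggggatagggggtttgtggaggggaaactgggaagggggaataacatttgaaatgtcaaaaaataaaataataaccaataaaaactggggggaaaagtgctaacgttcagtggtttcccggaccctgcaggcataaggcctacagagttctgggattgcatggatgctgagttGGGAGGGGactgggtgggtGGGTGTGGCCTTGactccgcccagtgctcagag
Esrrb: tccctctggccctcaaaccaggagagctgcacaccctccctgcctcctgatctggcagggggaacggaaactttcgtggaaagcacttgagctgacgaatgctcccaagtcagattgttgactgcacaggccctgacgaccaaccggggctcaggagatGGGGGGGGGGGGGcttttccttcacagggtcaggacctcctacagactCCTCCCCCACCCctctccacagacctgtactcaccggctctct

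The motifs were the letters that members bind: the octamer ATGCAAAT of POU factors, CAAGGNCA of NR5A and estrogen-related receptors, GGGNGNGG of Kruppel-like factors, GCCNNNGGC of AP-2 factors and CATTGT of SOX factors. The Pou5f1 promoter held 3 Kruppel-like matches, the last pair overlapping at 47 to 38 bases before the start. The Klf17 promoter held 2 Kruppel-like matches and 1 match to the receptor motif, TGGCCTTG at 28 to 21 bases before the start, which overlaps a Kruppel-like match. The Esrrb promoter held 8 Kruppel-like matches, 6 of them overlapping within a single run of G.

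Promoters of 7 members were in the table. For each member only the start site farthest upstream was searched, while the shares of all promoters take in every start site listed. The Kruppel-like letters were in 6 of the 7, but also in 45.9% of all 32851 promoters of that length, and the 7 promoters had 43.2% to 74% G and C against a median of 52.4%. The octamer was in 1.60% of all promoters, the receptor motif in 5.53%, the AP-2 motif in 13.7% and the SOX motif in 10.7%. The members' promoters held the octamer in 0 of 7, the receptor motif in 1 (Klf17), the AP-2 motif in 1 (Klf4) and the SOX motif in 1 (Nanog). A match of letters is not a bound site, and its absence from the window says nothing of a factor.

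A gene was compared when its pooled level, its summed counts over the summed library totals, was at least 10 CPM in at least 1 class and at least 50% of the libraries of the higher class had a count. It was called higher or lower at a pooled ratio of at least 2. Of the 10 factors, 8 were compared, and Sox2 and Nanog lay under the level. Among the 8, 3 were higher in the 2-cell-like libraries (Pou5f1, Klf4 and Klf5), 2 were lower (Sall4 and Esrrb) and 3 were within 2-fold (Klf17, Tfap2c and Nr5a2). Of all 9677 genes compared, 20.9% were higher, 27.8% were lower and 48.7% were either, so the factors' count lies near that of genes at large. The median log2 ratio was -0.07 over the 8 factors and -0.08 over all genes compared. Library ranges did not overlap for 1 of the 8, Pou5f1, and for 42 of all genes compared, or 0.434%.

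**Figure D1:**
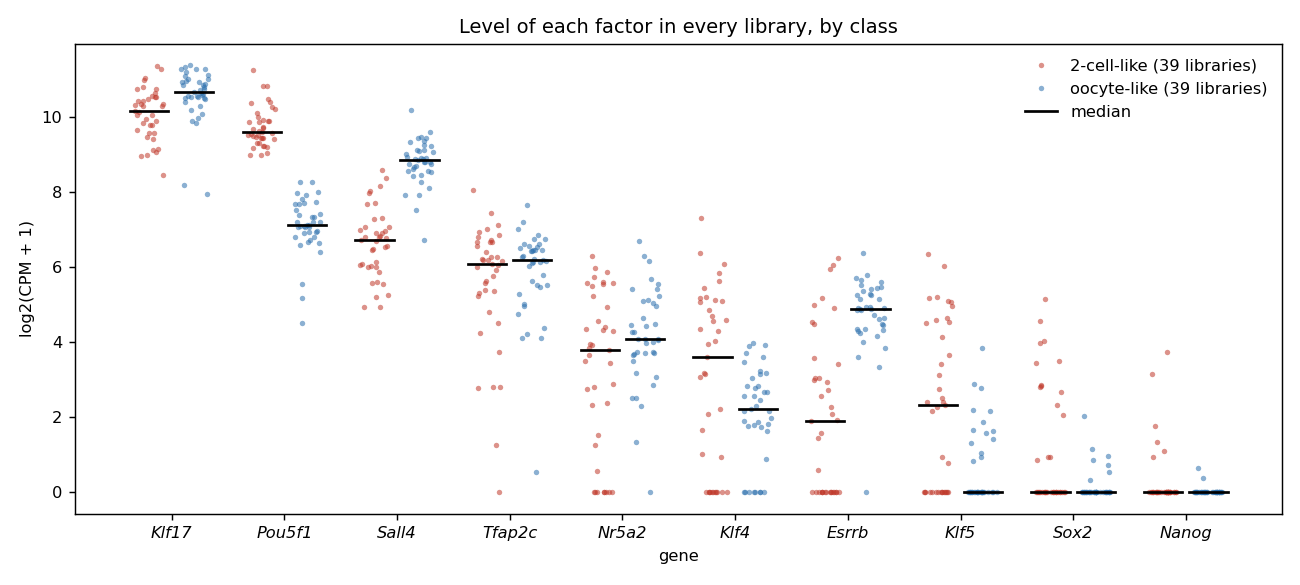
Level of each of the 10 factors in every library, as log2 of CPM plus 1, with 39 2-cell-like libraries in red left of 39 oocyte-like libraries in blue and a black line at each median. The Pou5f1 points of the classes do not overlap (506 to 2443 CPM in red, 21.8 to 308 CPM in blue), while most points of Sox2 and Nanog lie at 0 in both classes.

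Pou5f1, the POU factor required for the inner cell mass, was the factor whose levels did not overlap between the classes. It spanned 506 to 2443 CPM in the 2-cell-like libraries, with a median of 782, and 21.8 to 308 CPM in the oocyte-like ones, with a median of 138. The lowest 2-cell-like library was thus above the highest oocyte-like one. The pooled level was 960 against 157 CPM, a 6.10-fold difference with a 95% interval of 5.99 to 6.20. That interval, like every other here, covers counting error only: the protocols name no molecular identifiers, so PCR copies of a molecule are counted as reads of their own. Among genes compared, the Pou5f1 log2 ratio of 2.61 was at percentile 95.3. It had a log2 ratio between 2.39 and 2.70 in 14 alternative settings. The ranges stayed apart in all of them but one: with the Mos limit at 50 CPM, library 73, at 2443 CPM of Pou5f1, became oocyte-like, and the oocyte-like range of 21.8 to 2443 CPM then covered the 2-cell-like one.

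The Pou5f1 gene, on chromosome 17, shares an exon with the antisense gene Gm19553, which was looked at after its values were seen. Gm19553 had 214 against 33.1 CPM in the pools. It followed Pou5f1 closely, with a Spearman rho of 0.98 over the 39 libraries of each class. For every 100 Pou5f1 counts there were 22.2 Gm19553 counts (median, 20.1 to 25.1) in 2-cell-like libraries and 20.9 (0 to 24.0) in oocyte-like ones. Whether counting used the strand is not given in the sources used here, so reads of the 2 genes cannot be told apart.

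Sall4, a zinc finger partner of Pou5f1 in embryonic stem cells, ran the other way. Its levels were 29.6 to 387 CPM in 2-cell-like libraries, with a median of 105, and 105 to 1175 CPM in oocyte-like ones, with a median of 468. The ranges met between 105 and 387 CPM: 19 of the 39 2-cell-like libraries lay below every oocyte-like library, and 28 of the 39 oocyte-like libraries lay above every 2-cell-like one. Pooled, Sall4 was at 116 against 469 CPM, 4.06-fold lower (3.96 to 4.16). An opposite-strand gene, Gm14261, overlaps a Sall4 exon and was also looked at after its values were seen. It was at 5.24 against 19.5 CPM, with a median of 2.63 (0 to 49.6) and 4.00 (0 to 8.20) counts per 100 Sall4 counts.

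The opposite moves made the ratio of the 2 genes within a library a separator, a comparison picked after the values were seen. A 2-cell-like library held 1.51 to 38.8 Pou5f1 counts per Sall4 count, with a median of 8.32, and an oocyte-like library held 0.0828 to 0.659, with a median of 0.308. The lowest 2-cell-like ratio was thus above the highest oocyte-like one. These are ratios of counts, not corrected for the lengths of the genes, and library 73 would cross over with the Mos limit at 50 CPM. The ratio uses neither Mos nor Zfp352 and does not depend on how libraries are scaled. It does contain Pou5f1, whose ranges were already apart.

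**Figure D2:**
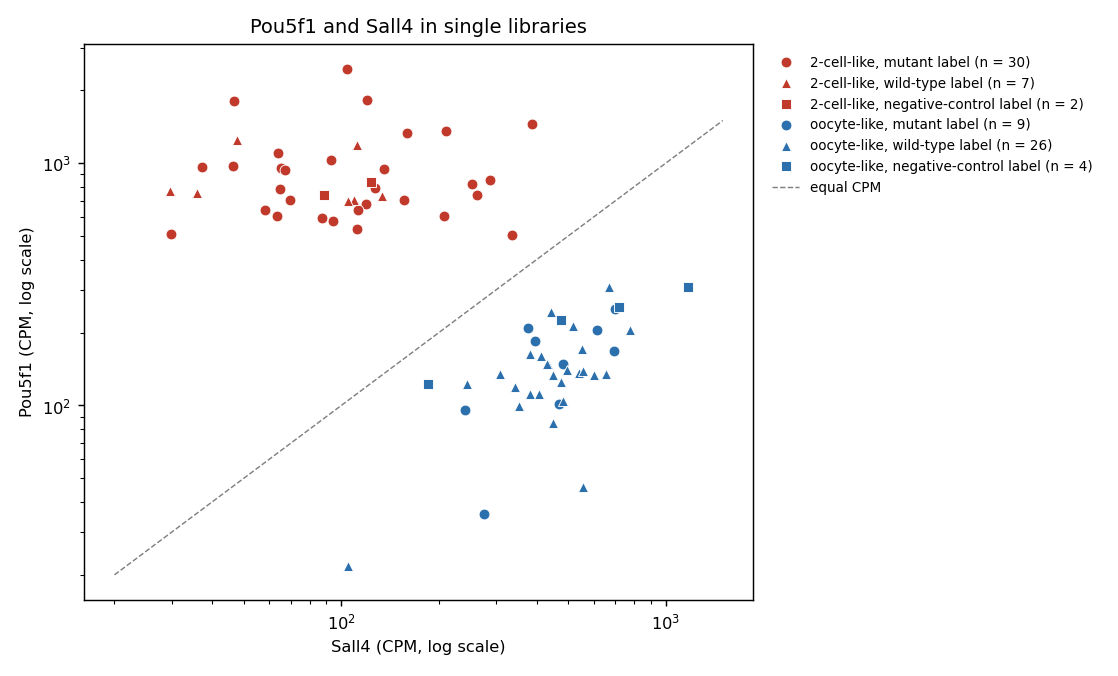
Pou5f1 against Sall4 in each of the 78 classed libraries, in CPM on log axes, with class by colour, genotype or control label by symbol, and a dashed line at equal CPM. All red 2-cell-like points lie above the line and all blue oocyte-like points below it, whatever the genotype symbol; the line is a guide and CPM is not corrected for gene length.

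The Kruppel-like factors differed among themselves. Klf4, a reprogramming factor, had 0 to 160 CPM in 2-cell-like libraries, with a median of 11.2, and 0 to 14.8 CPM in oocyte-like ones, with a median of 3.67. The pool gave 20.1 against 5.42 CPM, 3.70-fold higher (3.36 to 4.08). Klf4 passed the level of 10 CPM only through the 2-cell-like class, which fixed the direction of its ratio once it was compared. The high values were in a subset of cells: 18 of 39 2-cell-like libraries lay above every oocyte-like library, while 28 of 39 2-cell-like and 31 of 39 oocyte-like libraries had any Klf4 count. In the oocyte-like class its median was 5.93 CPM in the 11 libraries with over 0.1% of counts in cumulus and granulosa markers and 2.85 CPM in the other 28.

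Klf5, which acts in the trophectoderm and the inner cell mass, was patchier. It had 0 to 81.4 CPM in 2-cell-like libraries (median 4.08) and 0 to 13.5 CPM in oocyte-like ones (median 0), and 12 2-cell-like libraries lay above every oocyte-like one. Pooled, 10.7 against 1.20 CPM made it 8.92-fold higher (7.41 to 10.8). Klf5 entered the comparison only through the 2-cell-like class, just over the level of 10 CPM, which fixed the direction of its ratio. Without library 79 or without library 81 it fell under that level, and it was then not compared. Its log2 ratio of 3.16 was 2.34 by medians of libraries with 1 CPM added, and 4.60 without the 11 oocyte-like libraries richest in cumulus and granulosa markers. After thinning of every library to 100000 counts, 14 of 39 2-cell-like and 1 of 39 oocyte-like libraries kept a Klf5 count.

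Klf17 had the highest median level per kb of the 10 in both classes. Its range was 349 to 2638 CPM in 2-cell-like libraries, with a median of 1143, against 250 to 2680 CPM in oocyte-like ones, with a median of 1640. The pool of 1215 against 1731 CPM was 1.42-fold lower (1.41 to 1.44), and the ranges overlapped almost wholly. In the 11 oocyte-like libraries with the most cumulus and granulosa markers its median was 1098 CPM, and in the other 28 it was 1868 CPM. With Klf17 nearly level and Pou5f1 higher, a 2-cell-like library held 0.677 Pou5f1 counts per Klf17 count (median, 0.318 to 3.81) and an oocyte-like library 0.0873 (0.0233 to 0.418).

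Esrrb, an orphan nuclear receptor of the pluripotency network, was lower in most 2-cell-like libraries. It had 0 to 75.1 CPM there, with a median of 2.78, and 0 to 83.0 CPM in oocyte-like libraries, with a median of 28.8. Only 23 of 39 2-cell-like libraries had an Esrrb count, against 38 of 39 oocyte-like ones, and after thinning 15 against 35 did. The pooled 11.0 against 30.8 CPM was 2.81-fold lower (2.59 to 3.05). The log2 ratio was -1.49 in the pool and -2.98 by medians of libraries, with 1 CPM added to each.

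Nr5a2, a nuclear receptor that also acts in granulosa cells, showed no 2-fold difference. It had 0 to 78.5 CPM in 2-cell-like libraries (median 13.0) and 0 to 104 CPM in oocyte-like ones (median 16.2), with pools of 21.2 against 24.7 CPM. The sign of this small difference changed when libraries with somatic markers were left out, and the part of these markers was not tested. Of the oocyte-like libraries, 11 had over 0.1% of counts in cumulus and granulosa markers, and none of the 2-cell-like ones did; Nr5a2 had a median of 33.8 CPM in those 11 and 15.5 CPM in the other 28. Without the 11, the log2 ratio was 0.23, against -0.22 with them, and without library 61 alone it was -0.015. Library 61, with the highest share of these markers (1.07%), also had the highest Nr5a2 level.

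Nr5a1, the sister receptor known from steroid-making cells, was at 0 counts in the 2-cell-like class and 12.1 CPM in the oocyte-like pool. That is at least 262-fold lower against a floor of 3 counts over the class. Nr5a1 passed the level of 10 CPM only through the oocyte-like class, which fixed the direction of its ratio. The pool rested on a few oocyte-like libraries, since the median was 0.912 CPM and the highest 113 CPM. Library 86, in neither class and labelled mutant 2-cell, had 12.6 CPM of Nr5a1. It had 0.627% of counts in cumulus and granulosa markers, with Hsd3b1 at 3483 CPM, and 5632 CPM of the oviduct gene Ovgp1. Of the 10 factors it held 49.3 CPM of Nr5a2, 28.2 CPM of Klf5 and 10.9 CPM of Klf4. The other 7 were at 0 counts, which allows up to 1.26 CPM.

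Tfap2c, the AP-2 factor of the trophectoderm, was level between the classes. Its range was 0 to 266 CPM in 2-cell-like libraries (median 67.0) and 0.450 to 203 CPM in oocyte-like ones (median 73.0), and the pools were 74.0 against 70.1 CPM. The sign of this small difference changed with the setting, with log2 ratios of -0.14 with TMM factors, -0.05 with DESeq2 size factors and 0.08 by library totals, and below 0 without library 31 or without library 45. Its oocyte-like median was 45.3 CPM in the 11 libraries with over 0.1% of somatic markers and 77.4 CPM in the other 28.

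Sox2 and Nanog were near the limit of detection. Sox2 had a count in 15 of 39 2-cell-like libraries and 7 of 39 oocyte-like ones, with 281 against 28 counts in all. The highest library had 34.6 CPM in the 2-cell-like class and 3.11 CPM in the oocyte-like class. The gene lies within the long non-coding gene Sox2ot on the same strand, without a shared exon. Nanog had 43 counts in 6 of 39 2-cell-like libraries against 3 counts in 2 of 39 oocyte-like ones, and its highest levels were 12.5 and 0.566 CPM. With every library thinned to 100000 counts, Sox2 was left in 6 against 1 libraries and Nanog in 1 against 0. At this depth a low level in the other libraries was not detectable, and no ratio is read from either gene.

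**Figure D3:**
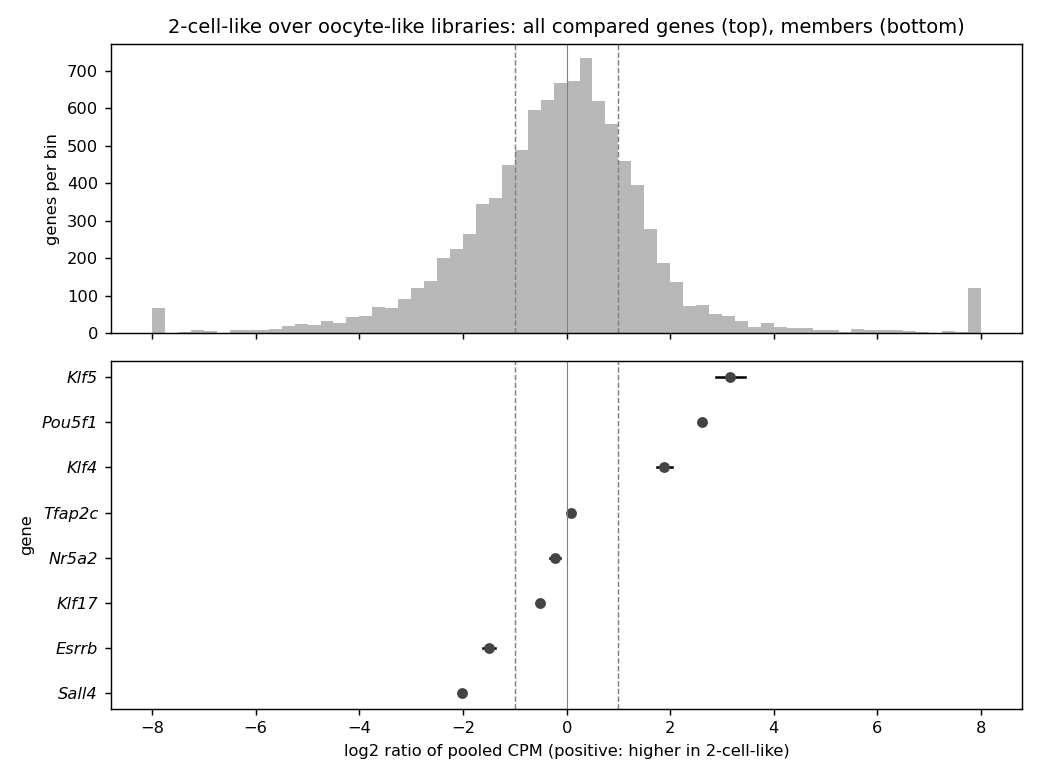
Log2 ratio of pooled CPM, 2-cell-like over oocyte-like, for all 9677 genes compared as a histogram with values beyond 8 put in the outermost bins (top), and for the 8 compared factors with 95% counting intervals (bottom). Dashed lines mark a 2-fold ratio; Klf5, Pou5f1 and Klf4 lie right of them, Sall4 and Esrrb left, and the other 3 between.

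To order the genes by level, CPM was divided by exon length in kilobases (GENCODE M21). In 2-cell-like libraries the median was 476 CPM per kb for Klf17 and 348 for Pou5f1, and their interquartile ranges overlapped. A wide step separated these 2 genes from Sall4 at 18.9 and Tfap2c at 18.2 CPM per kb, followed by Klf4 at 3.68, Nr5a2 at 2.21, Klf5 at 0.784 and Esrrb at 0.459. The step below Pou5f1 was the only place in that order where the interquartile ranges of neighbours did not overlap. In oocyte-like libraries Klf17 stood alone at 683 CPM per kb. Sall4 at 84.6 and Pou5f1 at 61.5 overlapped each other and lay apart from Tfap2c at 19.8, which lay apart from Esrrb at 4.77, Nr5a2 at 2.74 and Klf4 at 1.20. Klf5, Sox2 and Nanog had a median of 0 there.

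Together the 10 factors took a similar share of a library in both classes, 0.137 to 0.445% of counts (median 0.224%) in 2-cell-like libraries and 0.0508 to 0.371% (median 0.242%) in oocyte-like ones. The make-up differed: Pou5f1 and Klf17 made up a median of 89.0% of that share in 2-cell-like libraries and 75.4% in oocyte-like ones. A library held counts of 5 to 10 of the factors in the 2-cell-like class and 5 to 9 in the oocyte-like class, with a median of 7 in both. All 10 were seen in 1 library, a 2-cell-like one.

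Rank correlations between factors were mostly positive in oocyte-like libraries and mostly near 0 in 2-cell-like ones. They are a description without a p-value. All libraries share their preparation, and CPM values share a depth and sum to the same total. Over the 39 oocyte-like libraries the 15 pairs of 6 factors had a median Spearman rho of 0.39, from -0.34 to 0.60. The closest pairs were Tfap2c and Sall4 (0.60), Pou5f1 and Sall4 (0.55), Klf17 and Tfap2c (0.53) and Klf17 and Sall4 (0.51). Nr5a2 ran against the rest there, with rho of -0.33 to Klf17 and -0.34 to Tfap2c. Over the 39 2-cell-like libraries the 28 pairs of 8 factors had a median rho of -0.01, from -0.36 to 0.38. Many of the 2-cell-like values of Klf4, Klf5 and Esrrb are 0, and the difference between the classes was not tested. Padi6 itself correlated in the oocyte-like class with Sall4 (0.65), Esrrb (0.61), Klf17 (0.59), Pou5f1 (0.54) and Tfap2c (0.43). Its rho with Nr5a2 was -0.28. Its rho in the 2-cell-like class was 0.25 with Sall4, 0.12 with Esrrb, 0.49 with Klf17 and 0.41 with Pou5f1. There it was 0.16 with Tfap2c, -0.06 with Nr5a2, -0.12 with Klf4 and -0.03 with Klf5. In the oocyte-like class Klf17 had a rho of -0.52 with the cumulus and granulosa marker share. The part of that share in the correlations was not tested.

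**Figure D4:**
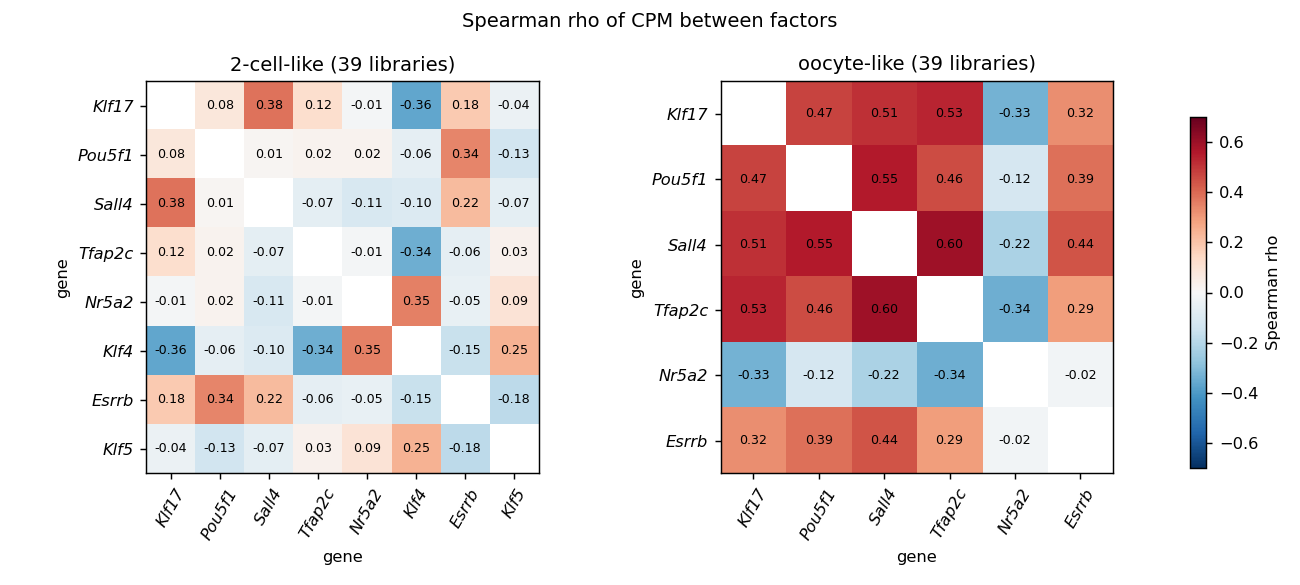
Spearman rho of CPM between factors over the 39 2-cell-like libraries (left, 8 factors) and the 39 oocyte-like libraries (right, 6 factors), on a colour scale from blue for negative to red for positive. The right panel is mostly red except for the Nr5a2 row, and the left panel is pale, with no pair beyond 0.38.

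In the 2-cell-like class the levels of 2 factors went with Zfp352 in opposite directions, at rho 0.55 for Klf5 and -0.43 for Pou5f1. Zfp352 helped to choose these libraries, so this orders libraries within the class only. Klf5 had a rho of 0.46 with Zscan4d, another gene of the 2-cell stage. Of 7953 genes ranked there, those near to Klf5 included Eif1ad14 (0.70) and Tmed5 (0.69). The genes nearest to Klf17 were Oas1c (0.79), Gm43069 (0.79) and Trim60 (0.73), and after Gm19553 those nearest to Pou5f1 were Ssna1 (0.70) and Rnf114 (0.69). The nearest to Klf4, Esrrb, Nr5a2, Tfap2c and Sall4 were Eif1 (0.68), Ift22 (0.59), Ptprr (0.66), Spats2 (0.57) and Stub1 (0.61). Nearest genes were picked as the highest of 7953 values over 39 libraries. The rho that chance alone would reach was not tested, here or in the oocyte-like class.

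Among 8604 genes ranked in the oocyte-like class, the nearest to Sall4 were Edc4 (0.84), Nkd1 (0.84) and the oocyte homeobox gene Nobox (0.83). Those nearest to Klf17 were Cox10 (0.84), Lzts1 (0.80) and Trim60 (0.80), so that Trim60 was among the 3 nearest to Klf17 in both classes. For Tfap2c they were Spry4 (0.81), Gtpbp1 (0.81) and Cops8 (0.80), for Pou5f1 after Gm19553 Ppt2 (0.79) and Ninj1 (0.77), for Esrrb Aven (0.76) and for Nr5a2 Tacc1 (0.73).

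Related genes moved in both directions too, and their counts can be read against the 20.9% higher and 27.8% lower of all genes compared. A gene under 10 CPM in 1 class was compared through the other class alone, which fixed the direction of its ratio. Among the genes named from these lists this holds for Zfp42, Dppa4, Tbx3, Zscan10, Klf6, Gata2, Zfp352, Crxos, Obox6 and Zscan4f. It also holds for Klf4, Klf5 and Nr5a1, as given above. Of 14 compared partners of the core pluripotency network, 7 were higher in 2-cell-like libraries, Pou5f1 among them, 1 was lower and 6 were within 2-fold, with a median log2 ratio of 0.72. Zfp42 (Rex1), a marker of embryonic stem cells, had 16.2 against 0.0625 CPM, with only 7 counts in the oocyte-like pool. Dppa4, a regulator of 2-cell genes, had 44.2 against 2.33 CPM, 19.0-fold higher (16.7 to 21.6), and the T-box factor Tbx3 had 29.5 against 3.81 CPM, 7.73-fold higher. Zscan10 was the one that was lower, at 2.53 against 22.0 CPM.

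The families that the factors belong to, with the factors counted in, were mixed. Of 9 Kruppel-like genes compared, 4 were higher and 1 was lower, with a median log2 ratio of 0.55; Klf16 had 57.0 against 14.5 CPM. Klf6 had 5.56 against 26.1 CPM, and library 86, with its somatic markers, had 133 CPM of it. Of 8 compared genes of the SALL, AP-2, NR5A and estrogen-related receptor families, 1 was higher and 3 were lower, with a median of -0.59. The higher one was Tfap2e, at 113 against 11.9 CPM, 9.46-fold (8.93 to 10.0), in contrast to the level Tfap2c. Of 5 POU and SOX genes, 1 was higher (Pou5f1), 2 were lower and 2 were within 2-fold, with a median of 0.27. Pou2f1 (Oct1), which binds the same octamer as Pou5f1, had 33.4 against 135 CPM, 4.05-fold lower (3.87 to 4.24), and Sox8 had 11.9 against 26.6 CPM.

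Factors of the first lineages went in both directions. Of 10 compared, 2 were higher, 3 were lower and 5 were within 2-fold, with a median of -0.53. The trophectoderm factors Gata2 and Gata3 moved apart, with 13.5 against 0.196 CPM for Gata2 (68.7-fold higher, 45.1 to 110) and 13.6 against 55.3 CPM for Gata3 (4.07-fold lower). The arginine methyltransferase gene Carm1 had 34.7 against 10.0 CPM in the pools but medians of 9.72 against 8.82 CPM, with up to 336 CPM in a 2-cell-like library, and Fgfr2 had 10.9 against 87.6 CPM. Of 22 factors of genome activation, 10 were higher, 5 lower and 7 within 2-fold, with a median of 0.79, and Zfp352 of the rule is among the 10. Of these 10, Gabpa alone was over 10 CPM in both classes, at 54.0 against 12.2 CPM. Crxos had 45.5 CPM against 0 counts, at least 1698-fold higher against a floor of 3 counts over the class. Obox6 had 38.7 CPM against 2 counts and Zscan4f 25.2 CPM against 1 count.

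Genotype labels were compared within each class, since the classes hold them unequally. The mutant label takes in both Padi6P620A/P620A (19 libraries, all 2-cell-like and with the oocyte label) and Padi6MatP620A/+ (11 2-cell-like and 9 oocyte-like libraries, with the 2-cell label), so that genotype and stage label go together. In the 2-cell-like class, with 30 libraries labelled mutant and 7 labelled wild type, 1 of 8 compared factors was higher in mutant and 0 were lower, where 18.6% of 8549 genes compared were higher and 6.32% lower. The higher one was Klf5, with 0 to 81.4 CPM in mutant (median 4.32) and 0 to 33.5 CPM in wild type (median 4.08). The pools of 12.7 against 5.38 CPM gave 2.36-fold (1.82 to 3.11), and Klf5 passed the level of 10 CPM only in mutant. The call did not hold by means (log2 0.97) or medians (0.07) of libraries, with thinning (0.90), or without library 4 (0.89), and without library 79 no factor was called higher. It was 2.18 without library 5, the highest wild-type one. Within the oocyte label alone, with 19 mutant and 7 wild-type libraries, Klf5 had 9.18 against 5.38 CPM and was not compared.

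Klf17, within 2-fold in the pools, showed more of its mutant libraries above the wild-type range. It had 349 to 2524 CPM in mutant, with a median of 1274, and 502 to 1078 CPM in wild type, with a median of 771, and 19 of the 30 mutant libraries lay above all 7 wild-type ones. The pooled 1290 against 691 CPM was 1.87-fold (1.82 to 1.91), short of 2-fold. With libraries down to 50000 counts and 2000 genes kept, the log2 ratio was 1.05, past 2-fold. Within the oocyte label alone it had 1332 against 691 CPM, 1.93-fold. Sall4 had 126 against 74.9 CPM and Pou5f1 986 against 901 CPM. By medians Sall4 was at 108 against 105 CPM. The Esrrb level of the wild-type label rested on library 8, at 75.1 CPM where the other 6 had at most 2.78. With it the log2 ratio of mutant over wild type was -0.57, and without it 3.04. Nr5a2 had 19.0 against 30.5 CPM, with a log2 ratio of -0.68 that was -1.03 without library 43 and -0.26 without library 8.

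In the oocyte-like class, with 9 libraries labelled mutant and 26 labelled wild type, 0 of 6 compared factors were higher and 0 were lower, where 0.429% of 9093 genes compared were higher and 15.8% lower. Klf17 had 2114 against 1574 CPM, Pou5f1 175 against 141 CPM, Sall4 506 against 445 CPM, Tfap2c 78.2 against 66.8 CPM and Esrrb 31.1 against 29.7 CPM. Nr5a2 had 15.5 against 28.4 CPM, 1.83-fold lower (1.64 to 2.04), with a log2 ratio of -0.87. It passed 2-fold without library 87 (-1.02) or library 93 (-1.14), and was -0.61 without library 61, -0.54 by medians and -0.56 without the libraries rich in cumulus and granulosa markers. In libraries with the 2-cell label alone, 9 mutant against 14 wild type, Klf17 had 2114 against 1509 CPM and Nr5a2 15.5 against 28.5 CPM. The pools of Klf17, Pou5f1 and Sall4 were thus higher and those of Nr5a2 lower under the mutant label in both classes, each by less than 2-fold. After thinning, the oocyte-like log2 ratio was -0.10 for Pou5f1 and -0.0012 for Sall4. Klf17 and Nr5a2 kept their sign in all alternative settings of both classes. In the 2-cell-like class the Pou5f1 log2 ratio was 0.13, and 0.03 with DESeq2 size factors. The mutant pools of Tfap2c and Esrrb were lower in the 2-cell-like class and higher in the oocyte-like class, but these signs changed with the setting. Over alternative settings the log2 ratios of Tfap2c spanned -0.56 to 0.13 in the 2-cell-like class and -0.23 to 0.36 in the oocyte-like class. Those of Esrrb spanned -0.68 to 0.97 and -0.13 to 0.20. The median log2 ratio of all genes compared was 0.16 in the 2-cell-like and -0.05 in the oocyte-like class. For Klf17, Pou5f1, Sall4 and Nr5a2 the ranges of the labels overlapped within each class.

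**Figure D5:**
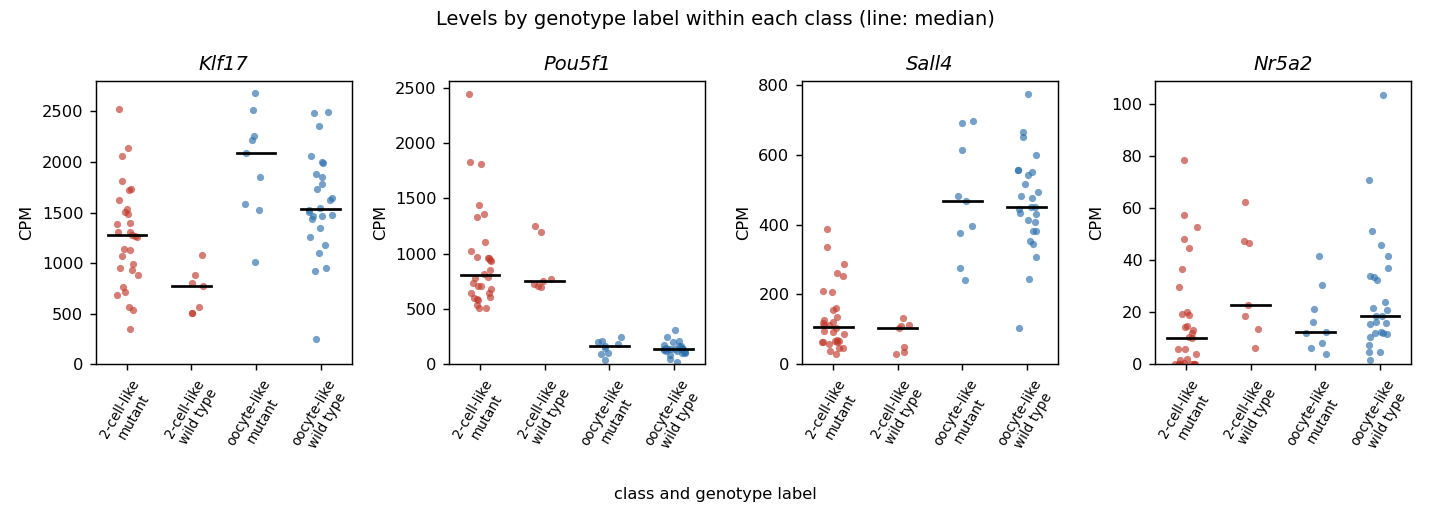
CPM of Klf17, Pou5f1, Sall4 and Nr5a2 in each library, by class and genotype label, with a black line at each median (30, 7, 9 and 26 libraries from left to right). Within a class the mutant and wild-type points overlap for all 4 genes, and the medians of Klf17 are 1274 against 771 CPM in the 2-cell-like class.

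By stage label instead, the classes were held in unequal parts. Under the oocyte label, where all 19 mutant libraries but 7 of the 19 wild-type ones were 2-cell-like, 1 of 7 factors was higher and 2 were lower, beside 16.8% and 22.7% of 9122 genes compared. Pou5f1 had 1034 against 329 CPM, Sall4 131 against 340 CPM and Esrrb 11.5 against 24.3 CPM. The Esrrb call, at log2 -1.07, was lost without any 1 of libraries 31, 34, 36, 41, 43, 18, 19 and 8, by means of libraries (-0.87) and with thinning (-0.64). Klf5, at 9.18 against 2.19 CPM, lay just under the level and was counted as higher without library 43, through mutant alone. Under the 2-cell label, where 11 of 21 mutant and 0 of 14 wild-type libraries were 2-cell-like, 2 of 7 were higher and 0 lower, beside 7.88% and 11.8% of 9996 genes. Pou5f1 had 394 against 131 CPM and Klf4 14.1 against 4.47 CPM, while Sall4 had 348 against 467 CPM. Klf4 passed the level of 10 CPM only through mutant, which fixed the direction of its ratio. Klf4 was not compared without library 80. Klf5, at 9.15 against 1.77 CPM, was counted as higher without library 85, 91 or 93, again through mutant alone. Within 1 class and 1 stage label Pou5f1 had 1034 against 901 CPM (2-cell-like, oocyte label) and 175 against 131 CPM (oocyte-like, 2-cell label), within 2-fold in both. With the Mos limit at 50 CPM, which moves library 73, its log2 ratio of mutant over wild type in the oocyte-like class was 0.91, against 0.31.

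The libraries labelled negative control that passed the filter were counted in their class, so the class ranges include them. The 2 that were 2-cell-like had Pou5f1 at 740 and 840 CPM, Klf17 at 1450 and 2638 CPM and Sall4 at 88.3 and 124 CPM. The 4 that were oocyte-like had Pou5f1 at 122 to 308 CPM, Klf17 at 292 to 2586 CPM and Sall4 at 185 to 1175 CPM. Library 48 had the highest Klf17 level of the 2-cell-like class. Library 95, with 162539 counts, had the highest Pou5f1, Tfap2c and Sall4 levels of the oocyte-like class. The libraries with this label therefore give no background of a well without a cell.

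Of the libraries next to the limits of the class rule, library 73, with the highest Mos level below the limit (63.3 CPM) and 210 CPM of Zfp352, had the highest Pou5f1 level of all, 2443 CPM. Library 29, with 1 count of Zfp352, had 935 CPM of Pou5f1. Library 61, with the lowest Mos level above the limit (201 CPM), had the lowest levels of its class in Pou5f1 (21.8 CPM), Klf17 (250 CPM), Sall4 (105 CPM) and Tfap2c (0.450 CPM), and its Sall4 level was at the 2-cell-like median of 105 CPM.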

How the data were processed

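The deposited values are raw counts of reads per gene symbol, not normalized. Per the submitters' processing notes, the tools were Trim Galore 0.4.4, HISAT2 2.1.0 and DESeq2, and the genome build was GRCm39. The counter, annotation and strand setting are not given in the sources used here. Per the labels' protocols, polyadenylated RNA was copied by template switching, amplified for 15 PCR cycles and made into libraries by tagmentation. Of 36983 table rows, 48 repeated a symbol and were summed into it.

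Levels are CPM of the library total. Classes were compared by pooled counts, with exact conditional binomial 95% intervals for ratios. Each cell is 1 library, no animal is named, and each group counted as 1 sample, so no test was run. Library numbers are those of the labels. Genes of the lists were named when they were among the 4 largest ratios of a list, nearest genes as the 3 highest rho, and other exceptions are said; 1 nearest gene is not reported here. Members and lists were chosen with earlier results of these data known. The comparison script was tested on simulated data. Alternatives used TMM (edgeR 4.0.16) and DESeq2 1.42.0 size factors, other filters, means, medians, thinning and libraries left out; comparisons within 1 stage label were added after seeing the data. The tables were handled in Python 3.11.15 and R 4.3.3.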

Additional observations from a re-analysis of the deposited data

Results flagged for a closer look

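Single libraries stood far from the rest of their class and genotype label in 6 of 28 combinations of a factor and a group of 4 to 10 libraries; chance flags about 1 in 20 such groups, and many of these groups are mostly zeros. In the 2-cell-like libraries labelled wild type, library 8 had 75.1 CPM of Esrrb, where the next had 2.78 CPM. In the same group library 5 had 33.5 CPM of Klf5 and library 6 had 12.5 CPM of Nanog, from 18 counts. In the oocyte-like libraries labelled mutant, library 94 had 0.566 CPM of Nanog, from 2 counts. In that group library 93 had 3.11 CPM of Sox2 and library 87 had 6.37 CPM of Klf5.

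Libraries outside the comparisons held some of the factors. Of the 17 libraries below the depth filter, more than 3 counts were found for Klf17 in 5, for Tfap2c and Sall4 in 4 each, for Pou5f1 in 3, and for Klf4 and Klf5 in 1 each. Library 13, with 286318 counts, had 737 CPM of Klf5 and 0 counts of the other 9 factors. Library 1 had 2693568 counts but only 3775 genes with a count, and 502 CPM of Pou5f1. Library 86, in neither class, had 49.3 CPM of Nr5a2, 28.2 CPM of Klf5 and 10.9 CPM of Klf4, with the somatic markers given above.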

How the results depend on the processing

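Between the classes, Pou5f1, Klf4, Klf5, Sall4 and Esrrb kept their direction and a ratio beyond 2-fold in 14 alternative settings. With no filter on level 5 factors were counted as higher and with TMM factors 2, in place of 3. With TMM factors a factor with a ratio beyond 2-fold was thus under the level and not compared. TMM factors moved the median log2 ratio of all genes by -0.24 and DESeq2 factors by -0.14, which put the share of higher among called genes at 33.4% and 37.5%, against 43.0%; within the oocyte label the TMM share was 31.3%, against 42.4%. Leaving out 1 library gave 2 to 3 higher and 2 lower. Within the 2-cell-like class, mutant over wild type gave 0 higher by means, medians and thinning, 2 higher with libraries down to 50000 counts, 2 lower by medians and 1 lower with no filter on level, and 0 higher with the oocyte label alone, a setting chosen after seeing the data; without 1 library, 0 to 2 were higher and 0 to 1 lower. In the oocyte-like class, no filter on level gave 1 higher and 1 lower, and leaving out 1 library gave 0 higher and 0 to 1 lower. Under the oocyte label, a level of 2 CPM gave 2 higher and no filter 3, and means, thinning and a filter of 500000 counts gave 1 lower; without 1 library, 1 to 2 were higher and 1 to 2 lower. Under the 2-cell label, medians gave 1 higher and 2 lower and no filter 4 higher; without 1 library, 1 to 3 were higher and 0 lower. The cause of these changes was not tested. No paired analysis was possible because the library numbers of the labels are unique and the groups share none. Depth limits what can be said of Sox2 and Nanog.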

Other observations

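Some marker genes outside the factors' families were at 0 counts in the oocyte-like class, among them AF067061, at 173 CPM, and Tdpoz4, at 67.2 CPM in the 2-cell-like pool. The oviduct list split, with the cell adhesion gene Epcam at 53.1 against 15.3 CPM, and Ovgp1 at 3.27 against 353 CPM. Of 7 blood cell genes 1 was compared, Lyz2, at 1.87 against 27.6 CPM, while Hba-a1 at 6.21 against 0.188 CPM and Cd74 at 11.4 against 2.63 CPM were not compared and went the other way, and 0 of 8 sperm genes reached the level for a comparison.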
